A study of Mus musculus with 22 samples.

Results

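Microglia are the resident macrophages of the spinal cord, and the genes described here are 30 that mark these cells or their work, taken from the deposited table by exact symbol match. The table held 17306 genes, and all 30 microglia genes were present and passed the filter on low values that left 16765 genes for testing. They comprised 9 homeostatic genes, 4 complement genes, 9 phagocytic and lysosomal genes, 6 immune receptors and their signalling partners, and 2 transcription factors. The match used symbols alone and no measured value.

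Homeostatic microglia survey the tissue with motile processes, depend on the growth factor receptor Csf1r for survival, and read the neuronal chemokine fractalkine through Cx3cr1. They make the 3 chains of C1q, which starts the classical complement cascade and tags synapses and debris, and Itgam is a chain of the complement receptor that recognises tagged targets. Phagocytosis is driven by receptors such as Trem2, which signals through the adaptor Tyrobp, and cargo is broken down in lysosomes by cathepsins. The transcription factors Spi1 (PU.1) and Irf8 set up and maintain the microglial programme, and spinal microglia are studied in pain because they react to signals from injured sensory neurons.

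The study asked how SAFit2, an inhibitor selective for the stress regulator FKBP51, acts in a mouse model of osteoarthritis pain. All mice were C57BL6J wildtype animals aged 12 to 14 weeks when tissue was collected, and all received 1 mg of monoiodoacetate (MIA) into a knee joint, which causes lasting joint damage. SAFit2 was given at 100 mg/kg under the skin in a slow-release phospholipid gel, and Vehicle mice received the gel alone. Early SAFit2 (n = 5) and Early Vehicle (n = 6) mice were dosed around MIA, on days given in the labels as 3 and 4. The earlier of these days falls before MIA in the study's methods. Late SAFit2 (n = 5) and Late Vehicle (n = 6) mice were dosed on days 20 and 27, and lumbar spinal cord was taken on day 30 from all 4 groups. The paper sequenced the dorsal horn quadrant of the injured side and describes the mice of this experiment as male. No mouse without MIA and no mouse without gel was analysed here, so the comparisons give the effect of drug in gel within the model and not the effect of MIA. The labels mark Early and Late as batches, so timing and batch cannot be told apart. The sample titles of the Early SAFit2 mice read SAFit1, and their treatment label, SAFit2, was followed.

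Values are log2 CPM as deposited, the read count of a gene scaled to a common library size, and 1 unit is a doubling. The 22 libraries held 11352989 to 24433349 reads on genes, and the 2 shallowest were those of Late SAFit2 mice 4 and 5. Across all genes in the late comparison, 2021 passed in all mice and 8 without both shallow libraries. Leaving these out also made the Late SAFit2 group smaller, and the 2 effects on the count were not told apart. In bulk tissue, fewer microglia and less RNA per microglial cell cannot be told apart.

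Because Spi1 encodes PU.1, a factor that binds purine-rich sites, the promoters of the microglia genes are shown where they hold the letters searched for. RefSeq windows on GRCm38.p6, reaching from 250 bases before to 50 bases after the start site, were matched for 22 of the 30 genes (28 windows). C1qa, Spi1, Csf1r, Tmem119, Gpr34, Selplg, Tyrobp and Unc93b1 had no matched window and were not searched. GAGGAAGT, a PU.1 motif, was present on either strand in 4 of the 28 windows (14.3%) against 3.20% of all 32851 windows. Its core AGGAAGT, which every GAGGAAGT match also contains, was present in 9 windows (32.1%) of 8 genes against 9.35% of all windows. Both Ptprc windows are among these, and they overlap and share a match. The PU.1-IRF composite GGAANNGAA was present in 2 windows (7.14%; Cd68 and Ctss) against 8.24% of all windows. The match at Ctss overlaps its GAGGAAGT match. The following are the upstream bases of the C1q chains with a match, shown because these chains are described first, with the match in capitals (on the minus strand it reads as the reverse complement). The C1qb window lies at chr4:136886201-136886450 and the C1qc window at chr4:136892915-136893164, both on the minus strand of GRCm38.p6.
C1qb: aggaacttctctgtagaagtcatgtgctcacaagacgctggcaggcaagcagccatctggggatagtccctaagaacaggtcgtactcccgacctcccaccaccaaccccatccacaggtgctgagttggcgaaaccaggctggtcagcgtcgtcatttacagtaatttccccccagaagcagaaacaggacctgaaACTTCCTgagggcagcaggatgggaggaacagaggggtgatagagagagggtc
C1qc: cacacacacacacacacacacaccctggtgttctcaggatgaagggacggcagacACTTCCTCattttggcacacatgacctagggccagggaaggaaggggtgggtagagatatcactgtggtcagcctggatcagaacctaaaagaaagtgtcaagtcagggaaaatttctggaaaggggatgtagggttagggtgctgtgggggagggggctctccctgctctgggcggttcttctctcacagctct

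The match in C1qc is GAGGAAGT, and that in C1qb is the core AGGAAGT only. The other 3 genes with GAGGAAGT are Ctss, Cd53 and Inpp5d, and 30 bases around each match are shown. The match began 2 bases before the start site in Ctss, 6 bases after it in Cd53 and 20 bases before it in Inpp5d. These stretches lie at chr3:95526773-95526802 (plus strand), chr3:106790125-106790154 (minus strand) and chr1:87620281-87620310 (plus strand) of GRCm38.p6. A match of letters describes the window and was not tested as a binding site.
Ctss: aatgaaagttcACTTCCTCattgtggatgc
Cd53: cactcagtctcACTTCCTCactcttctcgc
Inpp5d: gtttctataatGAGGAAGTtctgtgcagct

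All 30 genes were detected in every mouse, with 5 reads (Spi1) as the fewest in any library. Levels were compared per kilobase of each gene's longest annotated transcript, which may not be the form expressed. The mean level over the 22 mice was then highest for the lysosomal proteases Lgmn (log2 CPM per kb 6.76) and Ctss (5.79). C1qa (4.81) and C1qc (4.17) followed. Csf1r stood at 3.83 and Cx3cr1 at 3.46, above the homeostatic surface protein Tmem119 at 2.68. The lowest 3 levels per kilobase were those of Spi1 (0.19), Irf8 (-0.65) and the leukocyte phosphatase Ptprc (-0.67). The 7 defining microglia markers used (Tmem119, P2ry12, Cx3cr1, Sall1, Fcrls, Siglech and Csf1r) summed to between 165 and 258 CPM in every mouse, and none of them was at 0 in any library. Lymphocyte genes were near the limit, at 0.00 to 3.00 CPM summed over the 3 of 11 listed genes that the table held.

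**Figure D1:**
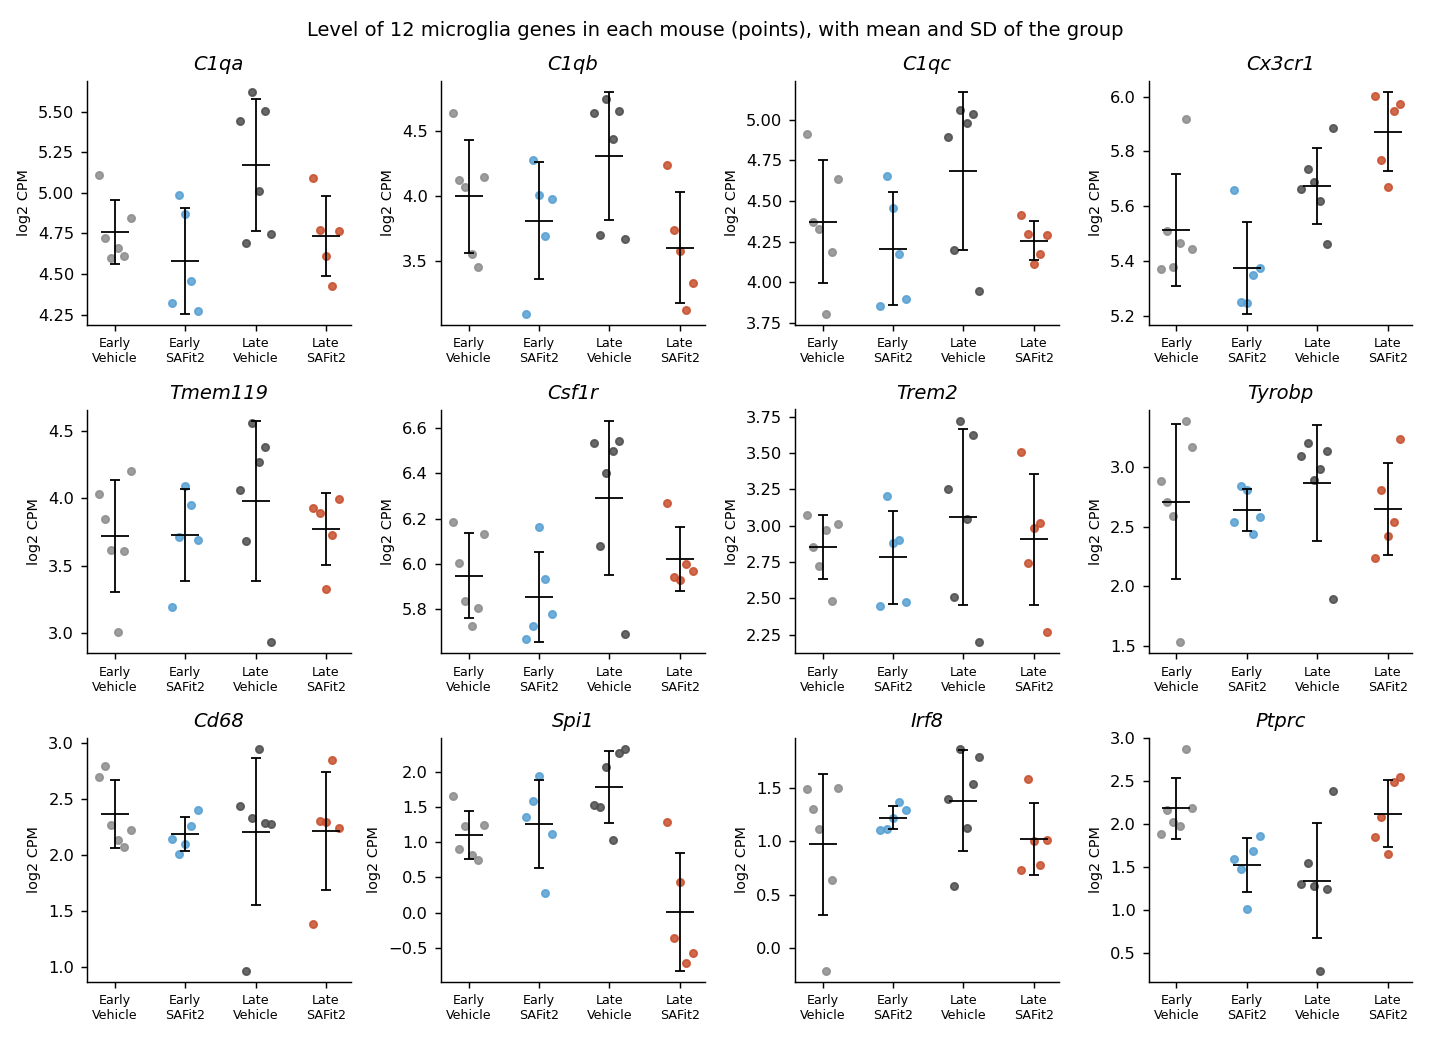
Level in log2 CPM (vertical axis) of 12 microglia genes in each of the 22 mice (points), by group, with the group mean and SD as bars; the vertical scale differs between panels. In Late SAFit2, 4 of 5 mice had a Spi1 level below 0.5, whereas the lowest of the 6 Late Vehicle mice was at 1.03.

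In the late comparison, which sets mice with drug on board against gel alone, the transcription factor Spi1 fell, and it was the only 1 of the 30 genes past the call rule of an adjusted p under 0.05 and a 1.2-fold change. By that rule 12.1% of all genes were called, so 1 of 30 was not above the background. At nominal p under 0.05, 12 microglia genes differed, against 34.5% of all genes. Of these 12, 6 were higher in Late SAFit2 (15.6% of all genes were higher at this level) and 6 were lower (19.0%). The higher genes were Gpr34, Siglech, Ctss, Mpeg1, Cd53 and Ptprc, and the lower genes were C1qa, C1qb, C1qc, Laptm5, Unc93b1 and Spi1. The median log2 fold change of the 30 genes was -0.08, with 13 positive and 17 negative, beside a median of -0.05 over all genes. No microglia gene had groups that failed to overlap, as 1.71% of all genes did.

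The 4 complement genes all had a negative late difference, and 3 of them, the C1q chains, were at nominal p under 0.05. C1qa, the A chain of C1q (chr4:136895917-136898803), ranged in Late Vehicle from 4.69 to 5.62 with a median of 5.23. In the 5 Late SAFit2 mice it stood at 5.09, 4.77, 4.61, 4.43 and 4.76. Late SAFit2 mice 3 and 4 lay below every Late Vehicle mouse and the other 3 lay inside the Late Vehicle range, where mice 2 and 6 were the lowest. The log2 fold change of C1qa was -0.44 ± 0.17 (SE; limma adjusted p = 0.0836), or 1.35-fold lower.

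C1qb, the B chain (chr4:136880129-136886187), ranged in Late Vehicle from 3.67 to 4.75 with a median of 4.53. Its Late SAFit2 values were 4.24, 3.74, 3.58, 3.12 and 3.34. Late SAFit2 mice 3, 4 and 5 lay below every Late Vehicle mouse. The log2 fold change was -0.70 ± 0.25 (limma adjusted p = 0.0567), or 1.63-fold lower. C1qc, the C chain (chr4:136889804-136893065), ranged in Late Vehicle from 3.94 to 5.06 with a median of 4.94. It stood at 4.42, 4.30, 4.11, 4.17 and 4.29 in Late SAFit2. All 5 Late SAFit2 mice lay below the 4 high Late Vehicle mice and above the lowest, and the log2 fold change was -0.43 ± 0.21 (limma adjusted p = 0.139). For the complement receptor chain Itgam the log2 fold change was -0.06 ± 0.17 (limma adjusted p = 0.839).

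Homeostatic genes did not share a direction, with 4 of 9 positive and none called. Cx3cr1, the fractalkine receptor, ranged in Late Vehicle from 5.46 to 5.88 with a median of 5.67. Its Late SAFit2 values were 6.0, 5.77, 5.67, 5.95 and 5.97. In 3 of 5 Late SAFit2 mice Cx3cr1 exceeded every Late Vehicle mouse, and the log2 fold change was 0.20 ± 0.11 (limma adjusted p = 0.206). Gpr34, a lysophospholipid receptor, ranged in Late Vehicle from 2.78 to 4.00 with a median of 3.46. In Late SAFit2 it was at 3.03, 4.28, 3.89, 4.69 and 4.67. Late SAFit2 mouse 1 was the low value, and the log2 fold change was 0.68 ± 0.25 (limma adjusted p = 0.065). Siglech, a sialic acid-binding receptor, had a Late Vehicle range of 2.83 to 3.87 (median 3.44). Its Late SAFit2 values of 3.51, 4.12, 3.29, 4.04 and 4.71 overlapped that range in 2 mice, with a log2 fold change of 0.57 ± 0.22 (limma adjusted p = 0.0791).

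The survival receptor Csf1r ranged in Late Vehicle from 5.69 to 6.54 with a median of 6.45. Its Late SAFit2 values were 6.27, 5.94, 5.93, 6.0 and 5.97. These lay below 4 of the 6 Late Vehicle mice, with a log2 fold change of -0.27 ± 0.14 (limma adjusted p = 0.162). Tmem119 was spread from 2.93 to 4.56 in Late Vehicle (median 4.16). It was at 3.92, 3.89, 3.33, 3.73 and 4.00 in Late SAFit2. All 5 fell inside the Late Vehicle range, and the log2 fold change was -0.21 ± 0.24 (limma adjusted p = 0.565). The other 4 homeostatic genes, Fcrls, Sall1, Olfml3 and Selplg, had log2 fold changes of -0.48 (Selplg, the P-selectin ligand) to 0.14 (Olfml3).

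**Figure D2:**
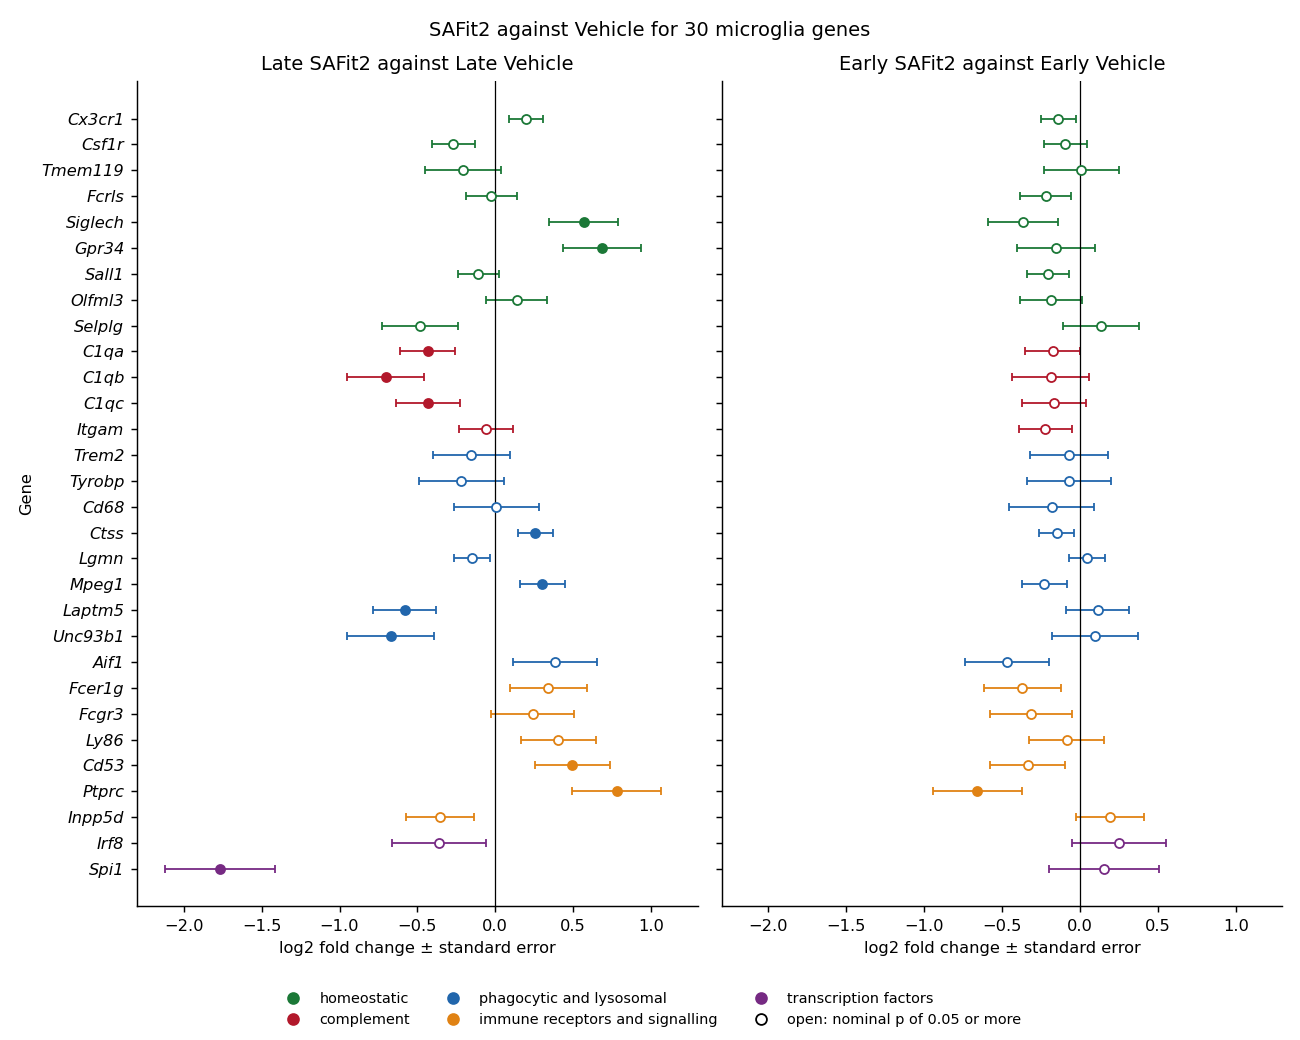
Log2 fold change with its standard error (horizontal axis) of each of the 30 microglia genes in the late comparison (left) and the early comparison (right), coloured by role; filled points have a nominal p under 0.05. The 3 C1q chains lie left of 0 in both panels, and Spi1, at -1.77, lies apart from the rest in the late panel only.

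Phagocytic and lysosomal genes moved both ways. Trem2, the lipid-sensing receptor, ranged in Late Vehicle from 2.20 to 3.72 (median 3.15) and stood at 3.51, 2.74, 2.99, 3.02 and 2.27 in Late SAFit2. Tyrobp, its adaptor, ranged from 1.89 to 3.20 (median 3.04) and stood at 2.24, 2.81, 2.42, 2.54 and 3.24. Cd68, a lysosomal membrane protein, ranged from 0.96 to 2.95 (median 2.31) and stood at 1.38, 2.30, 2.30, 2.85 and 2.24. The groups overlapped across nearly their whole range for these 3 genes, and the log2 fold changes of -0.15 ± 0.25, -0.22 ± 0.27 and 0.01 ± 0.28 were smaller than their standard errors. Laptm5, a lysosomal membrane protein that tempers receptor signalling, was at 5.70, 4.85, 5.32, 5.28 and 4.70 in Late SAFit2 against 5.34 to 6.17 in Late Vehicle (median 5.79). Late SAFit2 mouse 1 alone exceeded the lowest Late Vehicle mouse, with a log2 fold change of -0.58 ± 0.20 (limma adjusted p = 0.0551). Unc93b1, which carries nucleic acid-sensing Toll-like receptors to endosomes, had a log2 fold change of -0.67 ± 0.28 (limma adjusted p = 0.0908). Ctss, a cathepsin that can release fractalkine from neurons, and Mpeg1, a pore-forming protein, had log2 fold changes of 0.26 ± 0.11 and 0.30 ± 0.14 (limma adjusted p = 0.109 and 0.138).

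Among immune receptors and signalling genes, 5 of 6 had a positive late difference. Ptprc (CD45) ranged in Late Vehicle from 0.29 to 2.39 with a median of 1.29. Its Late SAFit2 values were 1.85, 2.09, 1.65, 2.49 and 2.55. Only Late Vehicle mouse 6 reached into the Late SAFit2 range, and the log2 fold change was 0.78 ± 0.29 (limma adjusted p = 0.064). The tetraspanin Cd53 had a log2 fold change of 0.49 ± 0.24 (limma adjusted p = 0.141). The Fc receptor chains Fcer1g and Fcgr3 and the immune gene Ly86 had differences of 0.24 to 0.40. The lipid phosphatase Inpp5d (SHIP1), an inhibitor of receptor signalling, had a negative difference, -0.35 ± 0.22.

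Spi1 carried the largest late difference among the 30 genes. It ranged in Late Vehicle from 1.03 to 2.32 with a median of 1.79. In Late SAFit2 it stood at 1.29, -0.36, 0.44, -0.71 and -0.57. Mouse 1 was the only Late SAFit2 mouse inside the Late Vehicle range. The log2 fold change was -1.77 ± 0.35 (limma adjusted p = 0.0262; exact permutation p = 0.00433), or 3.40-fold lower. Those values rested on few reads: 42, 9, 23, 5 and 5 in the 5 Late SAFit2 libraries against 38 to 81 in Late Vehicle. Without the 2 shallow Late SAFit2 libraries the log2 fold change was -1.33 ± 0.38 (limma adjusted p = 0.187), and the call was lost. It was also lost when only the 2 Late groups entered the fit. Leaving out 1 mouse at a time kept the call in 15 of 22 fits. The call was lost in the 7 fits without Late SAFit2 mouse 2, 4 or 5 or Late Vehicle mouse 1, 3, 4 or 5, with limma adjusted p up to 0.0881. Irf8, the partner factor, ranged from 0.58 to 1.87 in Late Vehicle (median 1.47) and stood at 0.73, 1.58, 1.00, 0.78 and 1.02 in Late SAFit2. These groups overlapped, with a log2 fold change of -0.36 ± 0.30 (limma adjusted p = 0.403).

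Set beside each other in every mouse, the 9 homeostatic genes and the 4 complement genes stood in a different relation in the 2 Late groups. The mean of the homeostatic genes minus that of the complement genes was 0.19 ± 0.30 (SD, n = 5) in Late SAFit2, with values of -0.24, 0.13, 0.10, 0.53 and 0.42. In Late Vehicle it was -0.27 ± 0.28 (n = 6), from -0.56 to 0.12. Late Vehicle mice 2 and 6 reached into the Late SAFit2 range. In Early SAFit2 the same difference was -0.01 ± 0.23 and in Early Vehicle -0.06 ± 0.23. These means describe the mice and were not tested. They are of deposited values, without the correction for GC content and transcript length described below.

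**Figure D3:**
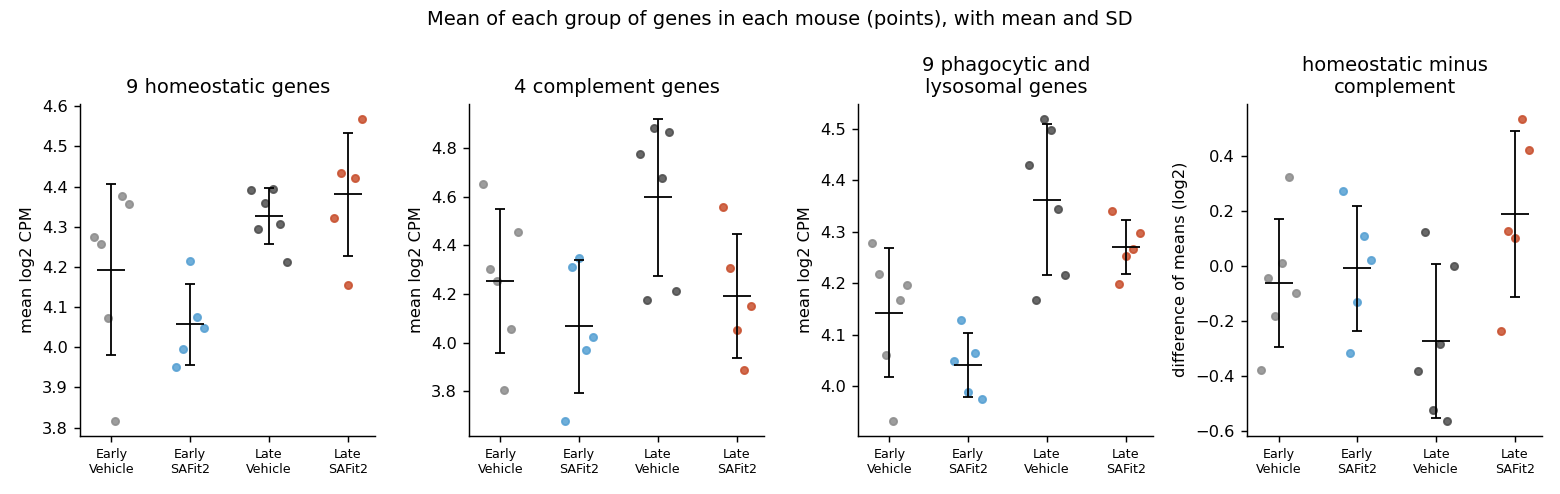
Mean log2 CPM in each mouse (points) of the homeostatic, complement, and phagocytic and lysosomal genes, and the homeostatic mean minus the complement mean, with group mean and SD. The homeostatic means of Late SAFit2 and Late Vehicle are 4.38 and 4.33, whereas their complement means are 4.19 and 4.60.

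GC content of the transcript moved with the late difference, and is a measured property to set beside every value above. Across 16203 genes the late log2 fold change had a correlation with GC content of -0.61, and across the 30 microglia genes -0.79 (across genes, which share the same libraries and are not independent replicates). The 30 genes ran from 37.1% GC (Gpr34) to 59.5% (C1qa), with a median of 51.7% beside 49.7% for all genes. Of the 10 microglia genes below the median of all genes, 8 had a positive late difference, and of the 20 above it, 5 did. The C1q chains (57.4% to 59.5%), Spi1 (58.9%) and Unc93b1 (57.3%) are at the GC-rich end, and Gpr34, Ptprc (39.4%) and Cd53 (40.0%) at the GC-poor end. The slope of a library's log2 values on GC content, per 10 percentage points and relative to the mean of all libraries, was -0.47 to -0.05 in Late SAFit2 and 0.26 to 0.49 in 4 Late Vehicle mice. In Late Vehicle mice 2 and 6, the ones low in C1qa, it was -0.16 and -0.32.

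After each library's smooth trend on GC content and transcript length was removed, 3 microglia genes were at nominal p under 0.05 in the late comparison, against 16.0% of all genes, and none was called. C1qa stood at 0.02, C1qc at -0.06 and C1qb at -0.35 on the log2 scale (limma adjusted p = 0.961, 0.882 and 0.349). Gpr34 was at 0.24, Ptprc at 0.44 and Laptm5 at -0.19. The 3 genes were Cx3cr1 (0.32, limma adjusted p = 0.231), Siglech (0.43, adjusted p = 0.277) and Spi1 (-1.26, adjusted p = 0.115). The median of the 30 genes went from -0.08 to 0.08, and that of the 9 homeostatic genes from -0.03 to 0.24. For the 4 complement genes the median went from -0.43 to -0.03. The homeostatic mean minus the complement mean in each mouse was not computed on corrected values.

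**Figure D4:**
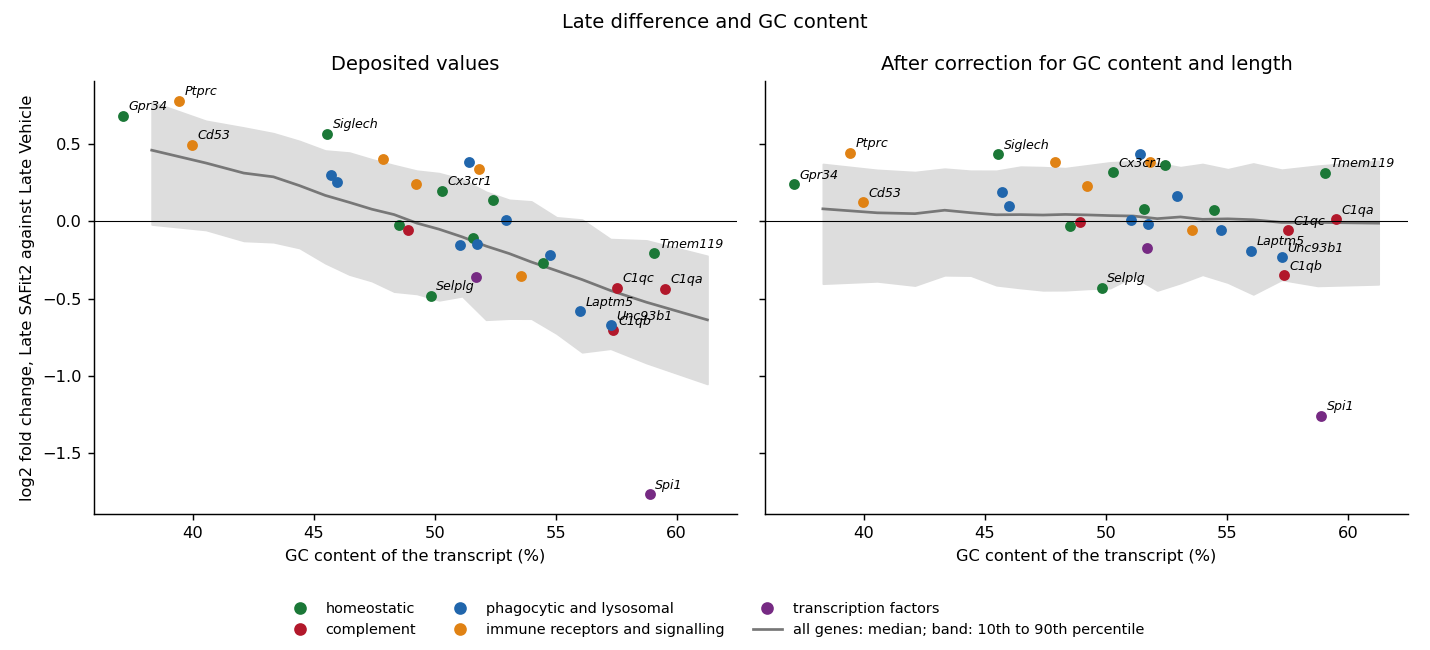
Late log2 fold change (vertical axis) against GC content of the transcript in percent (horizontal axis), for the deposited values (left) and after correction for GC content and length (right); points are the 30 microglia genes coloured by role, the line is the median of all genes in 20 bins and the band runs from the 10th to the 90th percentile. On the left C1qa, at 59.5% GC, and Gpr34, at 37.1%, follow the line of all genes, and Spi1 lies below the band in both panels.

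In the early comparison, which sets mice dosed around MIA against gel alone, no microglia gene passed the call rule, and 0.0% of all genes did. At nominal p under 0.05 there was 1 microglia gene, Ptprc, against 2.48% of all genes. Ptprc ranged in Early Vehicle from 1.88 to 2.88 with a median of 2.09. Its Early SAFit2 values were 1.59, 1.48, 1.02, 1.68 and 1.86. The groups did not overlap, as was the case for 0.352% of all genes, although the highest Early SAFit2 mouse, at 1.86, was next to the lowest Early Vehicle mouse, at 1.88. The log2 fold change was -0.66 ± 0.29 (limma adjusted p = 1.00; exact permutation p = 0.00433), opposite in sign to the late one. Of the 30 genes, 22 had a negative early difference, with a median of -0.16 beside 0.01 for all genes.

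The members next to Ptprc by p were Aif1 and Siglech. Aif1 (Iba1), an actin-bundling protein used to stain microglia, ranged in Early Vehicle from 2.25 to 3.48 (median 2.42) and stood at 2.82, 2.45, 1.22, 2.30 and 2.14 in Early SAFit2. Siglech ranged from 3.26 to 3.99 (median 3.68) and stood at 3.83, 3.05, 3.27, 3.18 and 3.04. Early SAFit2 mouse 1 was the high value for both, and the log2 fold changes were -0.47 ± 0.27 and -0.37 ± 0.22.

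The other genes followed in every mouse showed small early differences. C1qa was at 4.32, 4.98, 4.87, 4.46 and 4.27 in Early SAFit2 against 4.60 to 5.11 (median 4.69) in Early Vehicle. C1qb was at 3.10, 4.27, 4.01, 3.70 and 3.98 against 3.45 to 4.64 (median 4.10), and C1qc at 3.85, 4.65, 4.46, 4.17 and 3.90 against 3.81 to 4.91 (median 4.35). The C1q chains had log2 fold changes of -0.19 to -0.17, with standard errors of 0.17 to 0.25. Spi1 was at 1.35, 1.58, 1.94, 0.28 and 1.12 in Early SAFit2 against 0.75 to 1.66 (median 1.07). Irf8 was at 1.11, 1.12, 1.22, 1.37 and 1.29 against -0.21 to 1.5 (median 1.21). Neither factor was low in the Early SAFit2 mice as a group, with log2 fold changes of 0.16 ± 0.35 and 0.25 ± 0.30. Cx3cr1 was at 5.66, 5.25, 5.25, 5.35 and 5.37 against 5.37 to 5.92 (median 5.45). Csf1r was at 5.67, 5.72, 6.17, 5.93 and 5.78 against 5.73 to 6.19 (median 5.92), and Tmem119 at 3.20, 3.71, 4.09, 3.95 and 3.69 against 3.01 to 4.20 (median 3.73). All 3 homeostatic genes overlapped between the groups. Trem2 (2.45, 3.21, 2.88, 2.90 and 2.48 against 2.48 to 3.08), Tyrobp (2.53, 2.84, 2.81, 2.44 and 2.58 against 1.53 to 3.39) and Cd68 (2.14, 2.01, 2.10, 2.26 and 2.40 against 2.07 to 2.79) overlapped as well.

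Averaged over early and late dosing, 3 microglia genes were lower with SAFit2 at nominal p under 0.05, the rule that the study's methods use for exploratory work, against 13.2% of all genes. They were Spi1 (-0.80 ± 0.25), C1qb (-0.45 ± 0.17) and C1qa (-0.31 ± 0.12). Their limma adjusted p values were 0.325, 0.345 and 0.345, so none held after correction. After the GC and length correction 1 of the 3, Spi1, stayed at nominal p under 0.05 (-0.57, limma adjusted p = 0.53), and C1qa stood at -0.07.

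The difference between the early and the late effect was tested directly. No microglia gene was called for it, and 0.0% of all genes were. At nominal p under 0.05, 10 of 30 differed against 24.9% of all genes. The 3 genes of lowest p were Spi1 (1.92 ± 0.50, early minus late, limma adjusted p = 0.12), Ptprc (-1.44 ± 0.40, adjusted p = 0.12) and Siglech (-0.93 ± 0.32, adjusted p = 0.12). For Spi1 the early effect was above the late one, and for Ptprc and Siglech below it, yet none passed the threshold. This difference also moved with GC content, with a correlation of 0.55 across 16203 genes and 0.75 across the 30 microglia genes. After the GC and length correction the values of the 30 genes ran from -1.10 to 1.38. Of these, 8 were then at nominal p under 0.05, against 1979 of 16213 genes, and none was called.

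Late and Early mice on the same treatment were compared to see how the level of each gene differed between the 2 schedules, where timing and batch cannot be told apart. Between Vehicle groups, the protease Lgmn (legumain) was the only microglia gene called, against 9.11% of all genes. Lgmn ranged in Late Vehicle from 7.61 to 8.23 (median 7.98) and in Early Vehicle from 7.38 to 7.87 (median 7.50). Most Late Vehicle mice exceeded most Early Vehicle mice, with a log2 fold change of 0.44 ± 0.11 (limma adjusted p = 0.012), and the call held in all 22 fits that left out 1 mouse. It was lost after quantile normalization, where the difference was 0.27. At nominal p under 0.05 there were 7 genes against 24.3% of all genes, and of these Ptprc alone was lower in Late Vehicle (-0.84 ± 0.27). Of the 30 genes, 25 were positive, with a median of 0.25 beside 0.01 for all genes.

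Between SAFit2 groups, 8 of 30 microglia genes were called, against 20.5% of all genes. In Late SAFit2, 7 were higher (9.2% of all genes were called higher) and Spi1 was lower (11.3% were called lower). Ctss, at 6.67, 6.69, 6.33, 6.57 and 6.68 in Late SAFit2, stood at 5.98, 5.79, 5.63, 5.95 and 5.92 in Early SAFit2. Mpeg1 was at 5.26, 5.78, 5.49, 5.70 and 5.33 against 4.99, 4.50, 4.76, 4.66 and 4.71. Cd53 was at 3.46, 3.85, 3.24, 3.33 and 4.09 against 2.43, 2.67, 2.51, 2.61 and 2.75. For these 3 genes and Cx3cr1 the groups did not overlap, as was so for 14.5% of all genes. The log2 fold changes were 0.73 ± 0.12 for Ctss, 0.79 ± 0.15 for Mpeg1, 1.00 ± 0.25 for Cd53 and 0.50 ± 0.12 for Cx3cr1 (limma adjusted p = 0.000206, 0.0011, 0.00714 and 0.00467). All 4 calls held in each of the 22 fits that left out 1 mouse, and also without both shallow Late SAFit2 libraries. With the mean log2 CPM of the neuron list as a covariate none of the 8 genes was called and 101 genes were called in all, against 3437 without it. The median of the 30 genes was then 0.48, with 27 positive and 13 higher at nominal p under 0.05. Without the covariate, 12 of the 30 and 2605 of 16765 genes were higher at this level. The share of all genes with the covariate is not given, so the 13 are not read as a result about the microglia genes.

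The other 4 calls between SAFit2 groups were not kept without both shallow libraries. Gpr34 in Early SAFit2 was at 3.08, 2.98, 3.31, 3.26 and 3.43, and Itgam at 3.44, 3.33, 4.05, 3.55 and 3.95. Itgam in Late SAFit2 was at 4.49, 4.42, 3.91, 3.83 and 4.21. Gpr34 overlapped in Late SAFit2 mouse 1 and Itgam in 2 Late SAFit2 mice. The log2 fold changes were 0.90 ± 0.26 for Gpr34, 0.66 ± 0.23 for Siglech, 0.51 ± 0.18 for Itgam and -1.24 ± 0.37 for Spi1 (limma adjusted p = 0.0178, 0.0459, 0.0476 and 0.0204). Without both shallow libraries, where 1563 genes were called in all, the values were 0.52 for Gpr34, 0.36 for Siglech, 0.61 for Itgam and -0.80 for Spi1 (limma adjusted p = 0.229, 0.352, 0.0642 and 0.199).

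**Figure D5:**
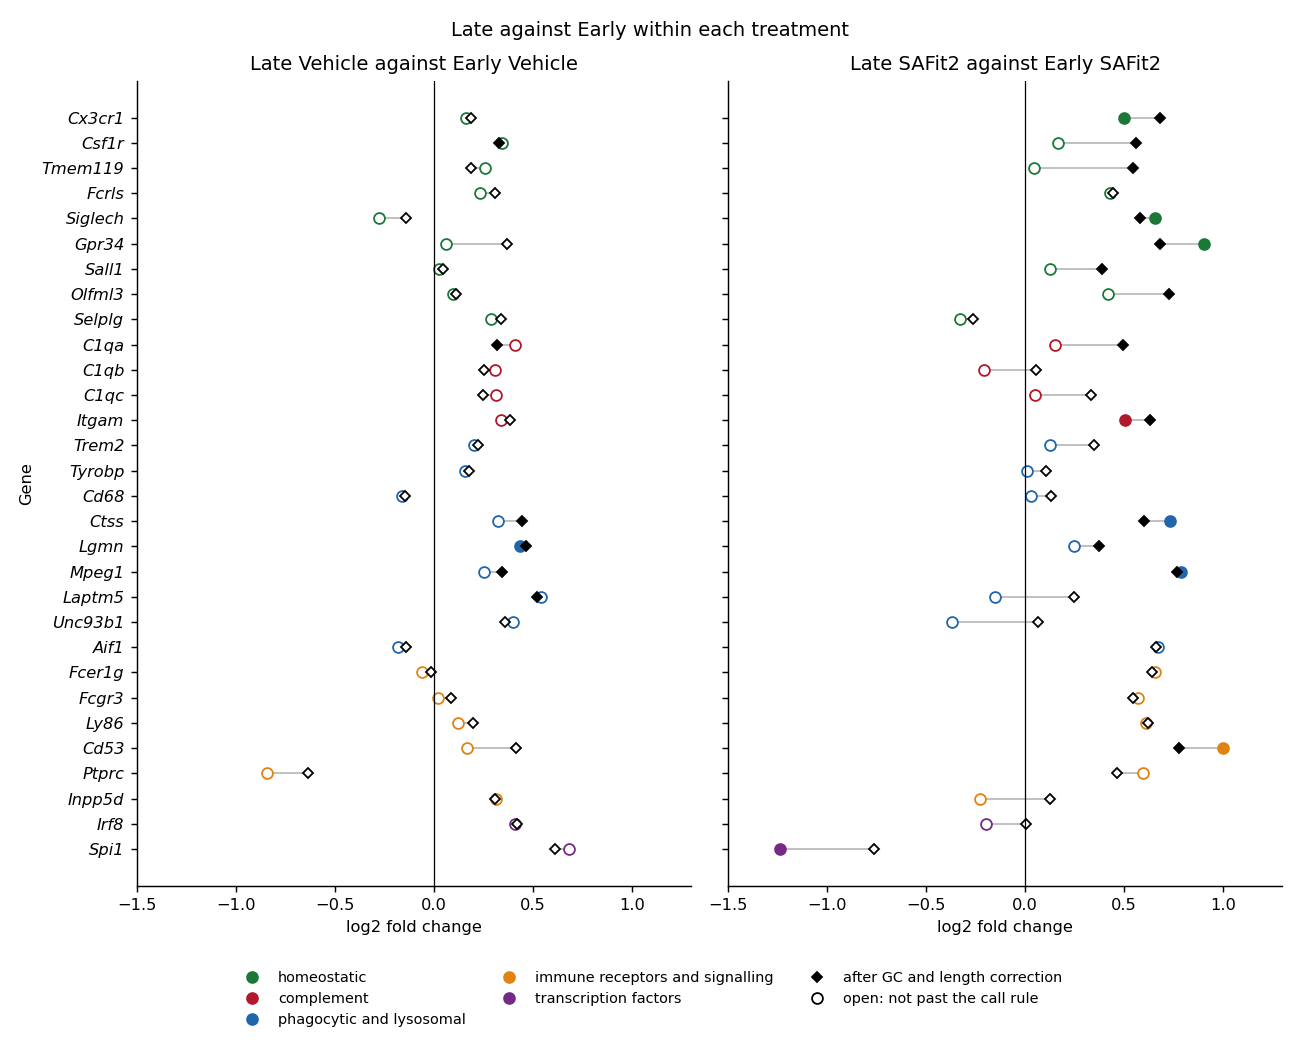
Log2 fold change (horizontal axis) of each of the 30 microglia genes between Late and Early mice given Vehicle (left) or SAFit2 (right); circles are deposited values coloured by role, diamonds the values after GC and length correction, and filled symbols passed the call rule. After correction 6 genes are called in the left panel and 13 in the right panel, all to the right of 0.

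After the GC and length correction, 6 genes were called between Vehicle groups (18.3% of all genes, in either direction) and 13 between SAFit2 groups (21.0%), all higher in Late mice. Of 16213 genes, 1925 were called higher in Late mice between Vehicle groups and 2419 between SAFit2 groups. The corrected median over all genes was 0.07 and 0.08. The 6 were Csf1r, C1qa, Ctss, Lgmn, Mpeg1 and Laptm5, each of which was also called between SAFit2 groups except Laptm5. Those called in both comparisons had corrected log2 fold changes of 0.32 (C1qa) to 0.46 (Lgmn) between Vehicle groups and 0.37 (Lgmn) to 0.76 (Mpeg1) between SAFit2 groups. Spi1 was not called in either after correction. The summed level of astrocyte markers was also higher in Late mice, at 7489 to 9020 CPM in the 11 Late mice against 5614 to 6965 CPM in the 11 Early mice, and its part in these differences was not tested.

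Across the 22 mice, with group means removed, the C1q chains varied together. Pearson's r was 0.83 for C1qa with C1qb (Spearman's rho 0.83), 0.84 for C1qa with C1qc (rho 0.82) and 0.83 for C1qb with C1qc (rho 0.84). The permutation p, adjusted over 6 relations, was 3.00e-05, 3.00e-05 and 4.00e-05 for Pearson's r, and the first 2 rest on the smallest p that 100000 permutations can give. Within the 11 Early mice r was 0.71, 0.87 and 0.82, and within the 11 Late mice 0.92, 0.83 and 0.84. Without the 2 mice farthest from the median r was 0.80, 0.81 and 0.79. After the GC and length correction r was lower, at 0.49, 0.47 and 0.63. The other 3 relations did not pass: r was 0.05 for the adaptors Tyrobp and Fcer1g (-0.63 within Early mice and 0.68 within Late mice), -0.38 for Cx3cr1 with Tmem119, and 0.21 for Spi1 with Irf8. Their adjusted permutation p values were 0.817, 0.121 and 0.426.

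Further genes of the same biology, from lists set by name, were read in the late comparison beside the 12.1% of all genes called there. Of 19 other homeostatic microglia genes, 1 was called, the transcription factor Mef2c, which rose by 0.61. Of 18 tested disease-associated microglia genes, 3 were called: Lpl (lipoprotein lipase, 1.24) and B2m (the light chain of class I molecules, 0.61) rose and the cathepsin Ctsz fell by 0.52 on the log2 scale. Of 11 ligands and inhibitory partners, 1 was called, Cx3cl1, the fractalkine that Cx3cr1 reads, at -0.49. After GC and length correction the values were 0.32 for Mef2c, 1.03 for Lpl, 0.22 for B2m, -0.14 for Ctsz and -0.02 for Cx3cl1. None of 14 further complement genes was called, and the 4 of lowest p were Cd59a (0.63), Clu (-0.29), Cd55 (0.63) and Cfb (-0.57). None of 15 tested microglial pain-signalling genes was called either, and the 2 with nominal p under 0.05 were Casp1 (0.63) and Il18 (0.44). In the early comparison no gene of these 5 lists was called.

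Markers of other cells that could contribute the same transcripts were set beside the microglia genes. The 10 border macrophage markers summed to 7.54 to 30.5 CPM in Late SAFit2 and 13.8 to 20.0 CPM in Late Vehicle, and none was called in the late comparison. Monocyte and neutrophil markers summed to 18.6 to 34.6 CPM and 12.2 to 25.9 CPM, with 0 of 9 tested called and a median log2 fold change of 0.73. The neuron list summed to 5605 to 6100 CPM in Late SAFit2 against 4762 to 5770 CPM in Late Vehicle, with 1 gene called in each direction. Skeletal muscle genes summed to 5.04, 6.36, 205, 4.60 and 148 CPM in the 5 Late SAFit2 mice against at most 6.38 CPM in Late Vehicle, and of 6 genes all were positive, 5 were higher at nominal p under 0.05 and 1 was called. Ependymal markers summed to 17.3 to 46.4 CPM in Late SAFit2 against 30.2 to 65.4 CPM in Late Vehicle. All 6 markers had a negative late difference, 2 were lower at nominal p under 0.05 and 1 was called lower. In Early SAFit2 they summed to 15.2 to 24.3 CPM against 20.8 to 48.1 CPM in Early Vehicle, where 4 of 6 were lower at nominal p under 0.05. The part of these other cells in the microglia gene differences was not tested. With the neuron list as a covariate the late Spi1 difference was -1.66, beside -1.77 without it, and Spi1 was no longer called.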

How the data were processed

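RNA from lumbar spinal cord of 22 mice (per the paper, the dorsal horn quadrant of the injured side) was sequenced. Per the paper's methods and the submitters' notes, the authors trimmed reads with Trimmomatic, aligned them to mm10 with HISAT2, counted them per gene with featureCounts and deposited log2 CPM values after TMM scaling with edgeR. Whole reads were recovered for 100% of values (tolerance 0.02 reads), at 11352989 to 24433349 reads per library, and depth limits genes of few reads. The 30 genes were matched by symbol, and the named genes are all 30 of them. The members and lists were chosen with earlier results of these data known. A further listed marker is not reported here. Genes at a log2 CPM of -1 or more in at least 5 libraries were tested with limma 3.58.1 (trend, R 4.3.3) in a model of 4 group means, with Benjamini-Hochberg adjustment over 16765 genes. A call needed an adjusted p under 0.05 and a 1.2-fold change, and the mean effect used nominal p under 0.05. The late, early, mean and early-minus-late results share samples. Exact two-sided permutation tests covered single genes. The correction removed each library's loess trend (span 0.5) on transcript GC content and length, known for 96.7% of tested genes. Both were taken from the longest annotated transcript of each gene, which may not be the form expressed. The code was tested on simulated data. The p-values measure the spread between the deposited samples, taken as separate mice.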

Additional observations from a re-analysis of the deposited data

Results flagged for a closer look

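In 8 of 120 sets of values, each being 1 gene in 1 group, the highest or lowest mouse stood apart from the others by Dixon's criterion, which chance alone meets in about 1 of 20. Of these, 3 concerned Early Vehicle mouse 4: Itgam was lowest there at 3.21 (next 3.94), the Fc receptor Fcgr3 was lowest at 1.74 (next 3.22), and Lgmn was highest at 7.87 (next 7.56). That library had 1026 genes without a read. In Early Vehicle mouse 5, Cx3cr1 was highest at 5.92 (next 5.51) and Ptprc was highest at 2.88 (next 2.19). In Late Vehicle, Tyrobp was lowest in mouse 6 at 1.89 (next 2.89) and Cd68 was lowest in mouse 2 at 0.965 (next 2.27). Csf1r was highest in Late SAFit2 mouse 1 at 6.27 (next 6.0). All values are log2 CPM.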

How the results depend on the processing

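The number of microglia genes called in the late comparison, 1 in the report, was 13 with library quality weights and 13 with a replicate block, where 6381 and 4219 genes were called in all against 2021. It was 0 when only the 2 groups entered the fit (0 genes in all by limma, 5245 at nominal p under 0.05), after GC and length correction (with or without the block), with the neuron list as covariate and without the libraries of low depth, an alternative chosen after seeing the data. For the mean effect, 3 in the report, the counts were 12 with quality weights and 5 after quantile normalization or with the replicate block. They were 4 with robust estimation and 1 after GC and length correction, with the neuron covariate or without the shallow libraries. The count was 0 with the block added to the correction, and 0 at an adjusted p under 0.05. Over all genes, 6396 were called with quality weights, 1985 after quantile normalization and 3135 with the block, against 2215. For the early-minus-late effect, 0 in the report, the counts were 8 with quality weights and 5 with the block. Over all genes, 5082 and 1785 were then called, against 0. Between Vehicle groups, 1 in the report, the count was 2 with a stricter filter, either pseudocount, no variance trend or without the shallow libraries. It was 3 with the block or voom and 5 with median centring or the neuron covariate. After GC and length correction, with or without the block, it was 6. With quality weights it was 10, and after quantile normalization 0. Over all genes, 1435 were called with the block, 2014 with median centring, 2972 after the correction and 5067 with quality weights, against 1527. Between SAFit2 groups, 8 in the report, the count was 13 with median centring or GC and length correction. It was 12 with the block added to that correction, and 10 with quality weights or quantile normalization. It was 7 with a pseudocount of 2, and 6 with no variance trend or with only the 2 groups in the fit. Without the shallow libraries it was 4, and with the neuron covariate 0. Over all genes, 3911 were called with median centring, 5162 with quality weights and 2680 after quantile normalization, against 3437. Leaving out 1 mouse gave 0 to 12 in the late comparison (12 without Late Vehicle mouse 6, 6 without Late SAFit2 mouse 1, 5 without Late Vehicle mouse 2), 0 in the early one, 3 to 7 for the mean effect (7 without Early Vehicle mouse 4 or Late SAFit2 mouse 1), 0 to 6 for early minus late (6 without Late Vehicle mouse 6), 1 to 5 between Vehicle groups and 4 to 9 between SAFit2 groups. The counts without 1 mouse have no share of all genes beside them and are not read as a result about the microglia genes. The causes were not tested. Replicate numbers did not pair the mice: correlations of same-numbered deviations ran from -0.24 to 0.32, and 2 of 10 exceeded 0.1. No called gene changed sign. Counting uncalled genes, 25 of 30 kept their sign after GC and length correction in the late comparison and 18 of 30 for the mean effect.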
